A study of Dorcoceras hygrometricum with 3 samples.

Results

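The regions described here lie in or near genes of Boea hygrometrica that carried no functional annotation. A listed gene was counted as unannotated where its KEGG description and its Gene Ontology (GO) component, function and process cells were all empty or held a dash. By that rule 980 of the 3177 genes listed for leaves at 70% relative water content (RWC) were unannotated, as were 1142 of the 3660 genes listed for leaves at 10% RWC. Over both lists these were 1787 distinct genes of 5575. The unannotated genes were assigned 934 of the 2690 distinct regions at 70% RWC and 1079 of the 3093 at 10% RWC, since a stretch between neighbouring genes can be listed for more than 1 gene. Their regions were spread over 715 and 823 scaffolds. None of the unannotated genes had a pathway entry either (0 in each list).

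Boea hygrometrica, which the sample records name Dorcoceras hygrometricum, is a resurrection plant, whose leaves dry out and recover on rewatering. Leaf DNA of plants grown in pots was sequenced after bisulfite treatment in 3 states: hydrated, dehydrated to 70% RWC (moderate dehydration) and desiccated to 10% RWC. No genotype, plant age or time under drying was given for any of the 3 libraries. Each state was 1 library, so a difference in level cannot be told apart from a difference between plants, leaves or library preparations, and none of the comparisons below carries a test of drying. The tables the authors deposited give each region a level in the hydrated leaf and a level in 1 dehydrated leaf, as fractions with 2 decimals where 1 means fully methylated. Read coverage was not analysed here. The depth behind a level is therefore unknown, a level of 0 or 1 may rest on few reads, and single levels carry no interval. Intervals on shares (exact binomial) and on medians (order statistics) are 95% intervals that cover only the number of genes counted, and neighbouring genes that share a region are not independent.

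In plants, cytosines are methylated in CG, CHG and CHH contexts, where H is any base but G. Methylation in all 3 contexts is dense over transposons and other repeats, where small RNAs guide it and where it is associated with silencing. Many moderately and constantly transcribed genes carry CG methylation inside the gene body. Gene models that lack similarity to characterised proteins include lineage-restricted genes, fragments of genes cut by a scaffold end, and repeat-derived open reading frames. Which of these the unannotated genes are was not tested, and the sources used here do not state the sequence context of the levels.

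The unannotated genes were short. Their median length was 1552 bp (95% interval 1420 to 1742) at 70% RWC, against 2886 bp for the 2197 annotated genes of the same list. At 10% RWC the medians were 1611.5 bp (1425 to 1760) and 2915 bp for 2518 annotated genes. Genes of up to 600 bp made up 25.3% (22.6 to 28.2) of the unannotated and 5.69% of the annotated genes at 70% RWC, and 25.7% (23.1 to 28.3) and 5.80% at 10% RWC. The shortest length of an unannotated gene was 153 bp in both lists, as in Bhs106_021V1.1. At 10% RWC this gene was tied at that length and was taken by gene ID. The longest ones were Bhs3036_007V1.1 with 37407 bp at 70% RWC and Bhs39_052V1.1 with 38607 bp at 10% RWC. Both long genes had their region inside the gene body, with levels of 0.16 hydrated and 0.44 at 70% RWC in Bhs3036_007V1.1, and 0.68 hydrated and 0.32 at 10% RWC in Bhs39_052V1.1.

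Partial annotation went with intermediate length. At 70% RWC, genes with GO terms only had a median of 2340 bp (n = 566), genes with a KEGG description only 2436 bp (n = 272) and genes with both 3322 bp (n = 1359). At 10% RWC those medians were 2421 bp (n = 660), 2437 bp (n = 311) and 3330 bp (n = 1547). A gene length that is a multiple of 3, as an intron-free coding sequence without untranslated ends would have, was found for 53.2% of unannotated and 42.5% of annotated genes at 70% RWC, and for 571 of 1142 and 42.5% at 10% RWC. When the annotated genes were weighted to the length classes of the unannotated ones, their shares were 54.4% and 53.8%, no lower than those of the unannotated genes.

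The unannotated genes also sat on shorter assembled pieces, as far as the listed coordinates reach. The highest coordinate listed on the scaffold had a median of 136091 bp for unannotated and 259426 bp for annotated genes at 70% RWC, and of 138619 and 261446 bp at 10% RWC. The highest gene number listed on the scaffold had medians of 8 and 20 at 70% RWC, and of 7.5 and 20 at 10% RWC. An unannotated gene was gene number 1 of its scaffold in 18.0% (15.6 to 20.5) of cases at 70% RWC and 18.7% (16.4 to 21.0) at 10% RWC, against 10.6% and 11.6% of annotated genes. Scaffold lengths themselves were not given, so these values are lower limits of the true extents.

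Regions at unannotated genes lay less in gene bodies and more in flanks. At 70% RWC, 340 of 980 (34.7%, 31.7 to 37.8) were in the gene body, 322 (32.9%) upstream and 318 (32.4%) downstream. The annotated genes of that list had 48.6% in the body, 23.8% upstream and 27.7% downstream. At 10% RWC the unannotated genes had 417 of 1142 (36.5%, 33.7 to 39.4) in the body, 377 (33.0%) upstream and 348 (30.5%) downstream, against 47.7%, 24.7% and 27.6%. Much of that gap went with gene length. Among unannotated genes at 70% RWC the body share was 11.3% (12 of 106) up to 300 bp, 32.5% (67 of 206) between 1000 and 2000 bp and 65.8% (129 of 196) above 4000 bp. Annotated genes of the same 3 length classes had 18.8%, 35.8% and 63.1%. Weighted to the lengths of the unannotated genes, the annotated body share was 38.04% at 70% RWC and 36.4% at 10% RWC, which narrowed the difference from -13.9 to -3.35 percentage points and from -11.2 to 0.12 percentage points.

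**Figure D1:**
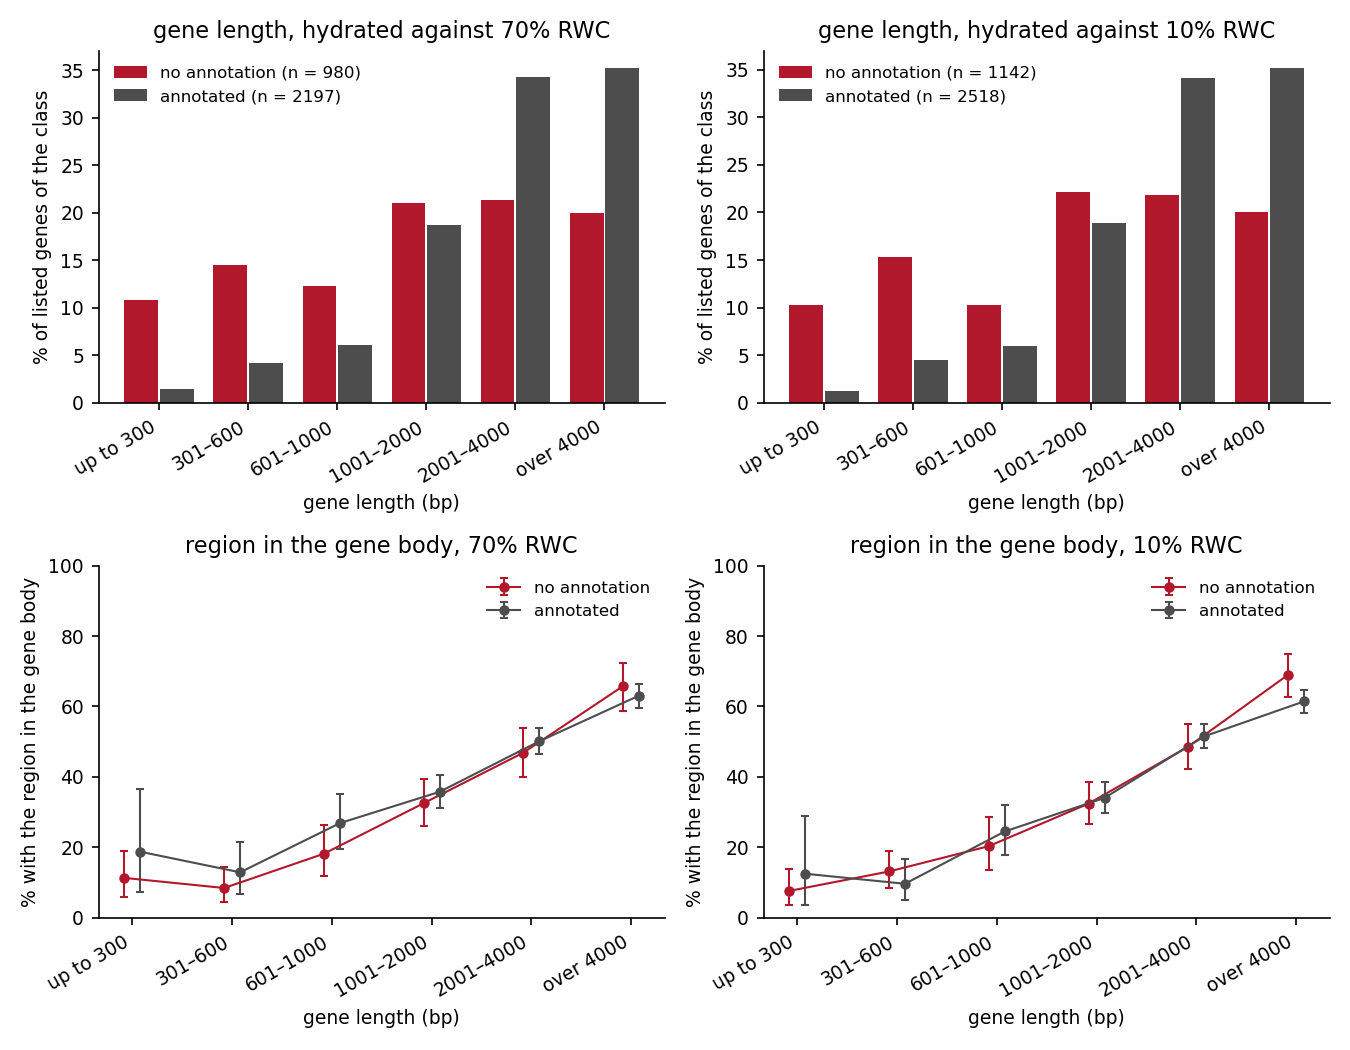
Share of listed genes in each gene length class (bp) and, within each class, the share whose region lay in the gene body, both in percent, for unannotated and annotated genes of the 70% RWC and 10% RWC lists. Genes of up to 600 bp are 25.3% and 25.7% of the unannotated genes and under 6% of the annotated ones, and the body share climbs with length in both classes.

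Within the flanks the distances were alike. The median gap between an upstream region and its gene was 883.5 bp for unannotated and 862.5 bp for annotated genes at 70% RWC, and 876 and 947 bp at 10% RWC. Downstream regions lay at medians of 749 and 715 bp at 70% RWC, and 770 and 719 bp at 10% RWC. All listed regions were within 1887 bp of their gene. A region inside an unannotated gene covered a median of 10.7% of it at 70% RWC and 10.6% at 10% RWC, against 9.37% and 9.61% in annotated genes. The regions themselves were shorter, with medians of 307 bp against 356 bp at 70% RWC and 303 bp against 350 bp at 10% RWC.

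Higher methylation after dehydration was listed for most unannotated genes at 70% RWC. The level was higher than in the hydrated leaf for 651 of 980 (66.4%, 63.4 to 69.4) and lower for 329. Over all 3177 listed genes the share with a higher level was 70.6% and with a lower level 29.4%, and over the annotated genes the higher share was 72.5% (70.5 to 74.3). At 10% RWC 619 of 1142 unannotated genes (54.2%, 51.3 to 57.1) had a higher level and 523 a lower one, against 55.8% higher and 44.2% lower over all 3660 genes and 56.5% (54.5 to 58.4) higher for annotated genes. The share at 10% RWC was thus near its background. The direction at 10% RWC depended on the size of the difference. Among the 338 unannotated genes with an absolute difference of 0.3 or more, 194 had a lower level and 144 a higher one (42.6%), and 39.9% of annotated genes past that size were higher. At 0.5 or more, 35 unannotated genes were higher and 24 lower at 10% RWC (59.3% higher, 45.7 to 71.9). The annotated genes had 10 and 19 (34.5% higher, 17.9 to 54.3). These intervals overlap, and each includes an even split. Over all 88 listed genes past 0.5, 45 were higher and 43 lower. At 0.7 or more, 10 unannotated genes were higher and 3 lower, and 1 and 3 annotated genes.

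At 70% RWC the lower share of increases was found in the longer unannotated genes. Up to 600 bp, 188 of 248 unannotated genes (75.8%, 70.0 to 81.0) had a higher level, beside 92 of 125 annotated genes (73.6%). Above 600 bp it was 463 of 732 (63.3%, 59.6 to 66.8), beside 1500 of 2072 annotated genes (72.4%, 70.4 to 74.3). Weighting the annotated genes to the unannotated lengths left their share at 72.2%, so that the difference in share moved only from -6.03 to -5.76 percentage points. No such split by length was seen at 10% RWC, where the higher share of unannotated genes was 56.0% up to 600 bp and 53.6% above, with 51.4% and 56.8% for annotated genes.

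**Figure D2:**
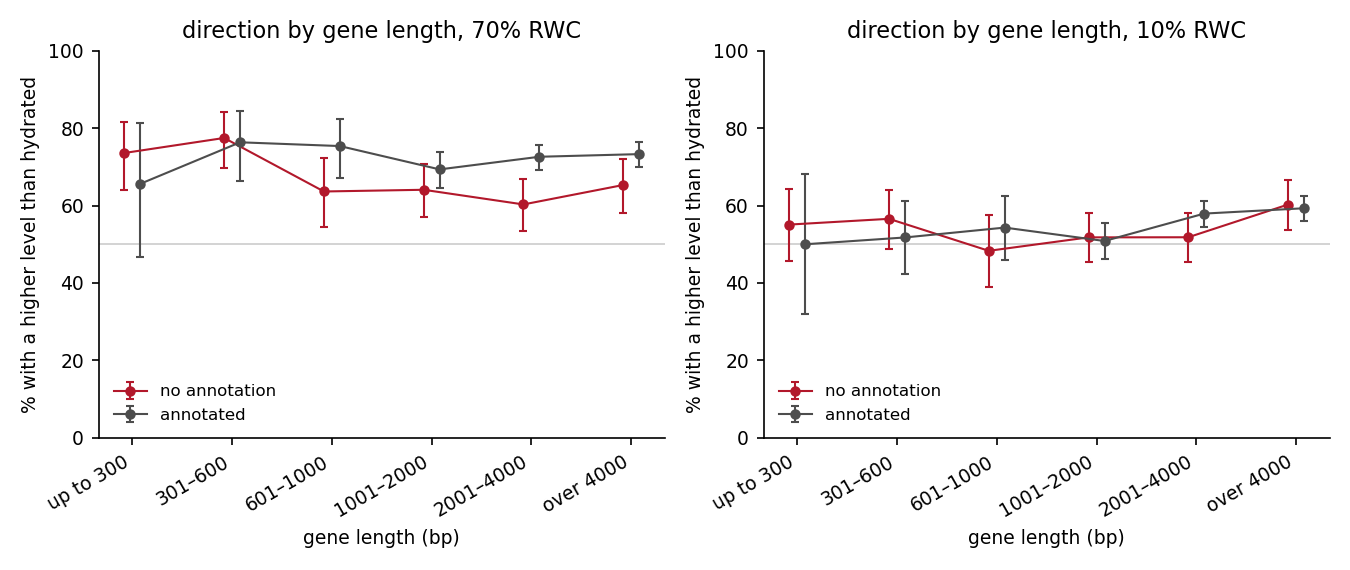
Share of genes with a higher level than in the hydrated leaf (percent, with exact 95% binomial intervals) by gene length class (bp) for the 70% RWC and 10% RWC lists, unannotated and annotated genes side by side. At 70% RWC the unannotated genes lie at 73.6% and 77.5% in the shortest 2 classes and between 60.3% and 65.3% in the longer ones.

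By place, the unannotated genes at 70% RWC had higher levels for 69.3% of upstream, 66.8% of body and 63.2% of downstream regions, while the annotated genes had 72.6%, 72.4% and 72.5%. At 10% RWC the unannotated shares were 54.6% upstream, 58.8% in the body and 48.3% downstream, with 47.3%, 62.4% and 54.4% for annotated genes. The intervals of the 2 classes at 10% RWC overlapped upstream (49.5 to 59.7 and 43.3 to 51.3), in the body (53.9 to 63.5 and 59.6 to 65.2) and downstream (42.9 to 53.7 and 50.6 to 58.1).

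The levels before and after dehydration were similar in both classes. Among unannotated genes with a higher level at 70% RWC, the median was 0.14 hydrated and 0.37 dehydrated, and 0.14 and 0.355 among annotated genes. Among those with a lower level it was 0.36 hydrated and 0.10 dehydrated, and 0.35 and 0.14 among annotated genes. At 10% RWC the unannotated medians were 0.10 and 0.30 for higher levels and 0.42 and 0.16 for lower ones, with 0.10 and 0.27, and 0.39 and 0.16, for annotated genes. The middle of the distribution differed little: the median absolute difference was 0.23 (0.22 to 0.24) against 0.21 at 70% RWC and 0.22 (0.21 to 0.23) against 0.19 at 10% RWC. The lists hold only regions whose higher level was at least 0.1 and whose levels were at least 1.86-fold apart wherever neither level was 0, which sets a lower limit on these differences in both classes.

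The upper tail differed more. At 70% RWC 70 of 980 unannotated genes (7.14%, 5.61 to 8.94) differed by at least 0.5, against 3.37% of all listed genes and 37 of 2197 annotated genes (1.68%, 1.19 to 2.31). At 10% RWC it was 59 of 1142 (5.17%, 3.96 to 6.61), against 2.4% of all listed genes and 29 of 2518 annotated genes (1.15%, 0.773 to 1.65). Unannotated genes thus made up 65.4% (55.6 to 74.4) of the 107 genes past 0.5 at 70% RWC and 67.0% (56.2 to 76.7) of the 88 at 10% RWC, while they were under 1 in 3 of each list. A difference of at least 0.7 was listed for 12 unannotated genes and 1 annotated gene at 70% RWC, and for 13 and 4 at 10% RWC. Genes with partial annotation stood with the fully annotated ones: at 70% RWC the share past 0.5 was 1.94% with GO only, 0 of 272 with KEGG only (upper limit 1.35%) and 1.91% with both. At 10% RWC those 3 shares were 1.52%, 1.29% and 0.970%.

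**Figure D3:**
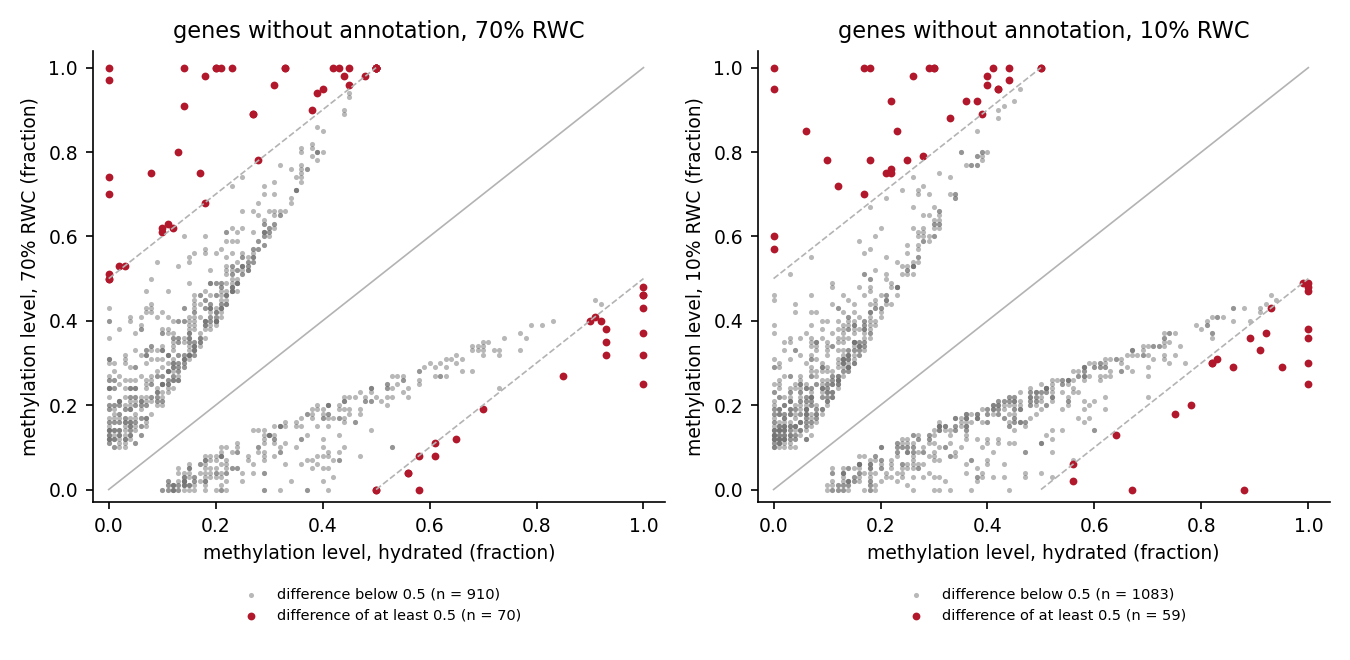
Methylation level (fraction) of each unannotated gene's region in the hydrated leaf (x axis) against the dehydrated leaf (y axis), 980 genes at 70% RWC and 1142 at 10% RWC, with differences of at least 0.5 in red. The 70 and 59 red points lie towards the upper left and lower right corners, and 25 and 17 of them have a level of 1.

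Of the 70 unannotated genes past 0.5 at 70% RWC, 46 were higher (4.69% of unannotated genes, against 2.14% of all genes) and 24 lower (2.45% against 1.23%). Of the 59 at 10% RWC, 35 were higher (3.06% against 1.23%) and 24 lower (2.10% against 1.17%). The annotated genes past 0.5 split into 22 higher and 15 lower at 70% RWC, and 10 higher and 19 lower at 10% RWC. The 70 genes lay on 68 regions of 68 scaffolds and the 59 on 57 regions of 57 scaffolds, so they were not a few clusters counted many times.

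The large differences of unannotated genes were found in the gene body more than those of annotated genes. At 70% RWC 31 of the 70 were in the body, 19 upstream and 20 downstream, and at 10% RWC 27, 12 and 20 of the 59. The 37 annotated genes split into 11, 17 and 9, and the 29 into 3, 18 and 8. Per listed region, 9.12% of body regions of unannotated genes passed 0.5 at 70% RWC (6.28 to 12.7) against 1.031% of annotated body regions (0.516 to 1.84). At 10% RWC this was 6.47% (4.31 to 9.28) against 0.250% (0.0515 to 0.728). Upstream the 2 classes were closer, with 5.90% (3.59 to 9.06) against 3.26% (1.91 to 5.16) at 70% RWC and 3.18% (1.66 to 5.49) against 2.89% (1.72 to 4.54) at 10% RWC, and these intervals overlap in both lists. Downstream the shares were 6.29% against 1.48%, and 5.75% against 1.15%.

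**Figure D4:**
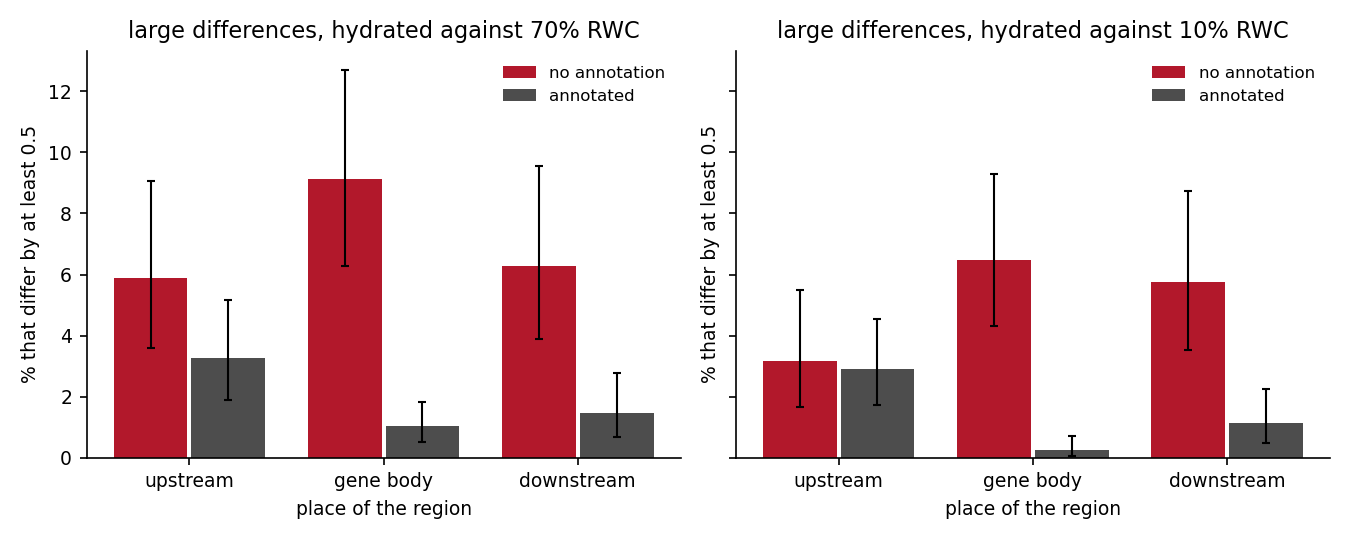
Share of regions that differ by at least 0.5 (percent, bars from 0 with exact 95% binomial intervals) by place relative to the gene, for unannotated and annotated genes of the 70% RWC and 10% RWC lists. Body regions show the widest gap, 9.12% against 1.031% and 6.47% against 0.250%, and upstream regions the narrowest.

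Several features of the regions moved with the share of large differences. On scaffolds whose listed coordinates reached up to 20 kb, 12.5% of unannotated genes at 70% RWC passed 0.5 (17 of 136), and on scaffolds beyond 200 kb 4.22% (17 of 403), while annotated genes had 1.51% and 1.65%. Regions of up to 250 bp passed 0.5 at 12.6% of unannotated genes (37 of 293) and 3.15% of annotated ones, and regions over 500 bp at 1.36% (2 of 147) and 0.605%. With the annotated genes weighted to the unannotated gene lengths, places, scaffold extents, region lengths or higher levels, one at a time, their share at 70% RWC stayed between 1.56% and 1.95%. Where only scaffolds that listed both kinds of gene were kept, the unannotated share was 4.55% (2.94 to 6.70) against 1.97% at 70% RWC. At 10% RWC it was 2.72% (1.59 to 4.33) against 1.31%, a narrower gap than the 5.17% against 1.15% of the full list. The part of scaffold extent, region length or depth in the large differences was not tested.

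Levels of exactly 1 were part of that tail. At 70% RWC the higher level was listed at 1 for 25 unannotated genes (2.55%, 1.66 to 3.74) and for 1 annotated gene (0.0455%). At 10% RWC it was 17 (1.49%, 0.870 to 2.37) and 6 (0.238%). All of these unannotated genes are among those past 0.5, which the selection of regions by the ratio of their levels nearly fixes for a level of 1. The level of 1 was in the hydrated leaf for 7 of the 25 and in the dehydrated leaf for 18, and for 7 and 10 of the 17. A level of 0 as the lower value was listed for 72 unannotated genes (7.35%) and 116 annotated ones (5.28%) at 70% RWC, and for 64 (5.60%) and 97 (3.85%) at 10% RWC.

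Among increases at 70% RWC, a series of gene models on short or few-gene scaffolds reached full methylation. In Bhs5319_002V1.1 a body region of 215 bp (scaffold5319, 95469 to 95683) had 0.20 hydrated and 1 at 70% RWC. Upstream of Bhs2664_002V1.1 the region at scaffold2664, 55971 to 56241, ran across the gene's listed boundary and had 0.21 and 1. Bhs188977_001V1.1, a model of 291 bp on a scaffold with no listed coordinate beyond 360, had 0.23 hydrated and 1 at 70% RWC over 207 bp of its body. These 3 regions were listed at 1 in the dehydrated leaf and at 0.20 to 0.23 in the hydrated leaf, and no annotation gives the genes a role. Other increases lay downstream. The largest was at Bhs3890_002V1.1, with 0 hydrated and 1 at 70% RWC, and the next at Bhs9669_003V1.1, with 0 and 0.97. At Bhs723_014V1.1 the levels were 0.14 and 0.91, at 1444 bp from the gene. At Bhs11134_001V1.1, a model of 204 bp, they were 0 and 0.74.

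Among the large decreases at 70% RWC, several started from a level of 0.85 to 1 inside a gene body. The largest was in Bhs1761_010V1.1, with 1 hydrated and 0.25 at 70% RWC. Bhs1717_001V1.1 had 1 hydrated and 0.37 at 70% RWC over 252 bp of a gene of 9650 bp. Bhs2397_002V1.1 had 0.93 and 0.32, and Bhs8840_001V1.1 0.93 and 0.35. Bhs15686_001V1.1, whose gene runs to the last listed position of its scaffold (3157), had 0.85 and 0.27. Upstream decreases included 1 to 0.32 at Bhs2524_019V1.1 and 1 to 0.43 at Bhs4464_003V1.1, at 34 bp from a gene of 522 bp. They also included 0.93 to 0.38 at Bhs799_001V1.1 and 0.58 to 0 at Bhs7909_002V1.1. The last of these was listed at 0 in the dehydrated library, whereas the others kept between 0.25 and 0.43.

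At 10% RWC the large increases fell in bodies and flanks alike. Bhs1547_001V1.1, a gene of 7814 bp and the only gene number listed on its scaffold, had 0.06 hydrated and 0.85 at 10% RWC over 330 bp of its body. Bhs14970_001V1.1 had 0.22 and 0.92 in its body. A single stretch of 321 bp (scaffold1835, 79263 to 79583), listed as upstream of Bhs1835_010V1.1 and downstream of Bhs1835_011V1.1, had 0.30 and 1. It counts for both genes and is 1 measurement.

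The large decreases at 10% RWC included body regions that were listed at 1 in the hydrated leaf. Bhs9095_001V1.1 had 1 hydrated and 0.25 at 10% RWC. Bhs37198_001V1.1 had 1 hydrated and 0.30 at 10% RWC, on a scaffold listed up to 1925 bp. Bhs4353_003V1.1 had 0.67 and 0 in its body. Flanking decreases included the largest at 10% RWC, 0.88 to 0 downstream of Bhs200_093V1.1. They also included 0.95 to 0.29 downstream of Bhs2451_003V1.1 and 0.91 to 0.33 upstream of Bhs222_047V1.1. Further ones were 0.78 to 0.20 upstream of Bhs807_003V1.1 and 0.86 to 0.29 downstream of Bhs26_009V1.1. Each of these genes was on a different scaffold.

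Some regions belonged to an unannotated gene and an annotated neighbour at once. There were 186 such regions at 70% RWC and 209 at 10% RWC, beside 748 and 870 listed for unannotated genes alone. Of the shared ones, 169 and 199 were listed for 1 gene of each kind. In these pairs the unannotated gene was the shorter one in 126 of 169 and in 139 of 199, with median lengths of 1197 against 2519 bp and of 1334 against 2544 bp. Shared regions were higher than in the hydrated leaf in 68.3% (61.1 to 74.9) at 70% RWC and 52.6% (45.6 to 59.6) at 10% RWC. They held few large differences: 2 of 186 (1.08%, 0.130 to 3.83) and 1 of 209 (0.478%, 0.0121 to 2.64) reached 0.5, against 8.82% (6.89 to 11.1) and 6.44% (4.90 to 8.28) of the regions listed for unannotated genes alone. Regions listed for annotated genes alone were near the shared ones in this, with 1.88% (1.30 to 2.63) and 1.29% (0.845 to 1.89), and they were higher than in the hydrated leaf in 72.5% and 56.6%.

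The largest differences of these shared regions give the unannotated gene a named neighbour. At 70% RWC the stretch at scaffold222, 175616 to 175897, listed upstream of both Bhs222_027V1.1 and Bhs222_026V1.1, had 0.50 hydrated and 0 dehydrated. Bhs222_026V1.1 is described as ferredoxin, an iron-sulphur electron carrier. A region of 215 bp upstream of Bhs8446_002V1.1 had 0 and 0.50, and it was downstream of Bhs8446_001V1.1, described as pectinesterase, an enzyme that removes methyl groups from cell wall pectin. Upstream of Bhs137_001V1.1 the levels were 0.09 and 0.54, and the same stretch was upstream of Bhs137_002V1.1, described as subunit 7 of Mediator, the complex that links transcription factors to RNA polymerase II. Bhs2524_011V1.1, a model of 309 bp, had 0.91 and 0.45 upstream, within the body of Bhs2524_012V1.1, whose GO term is plastid.

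At 10% RWC the largest of them was at scaffold1934, 51436 to 51802, downstream of both Bhs1934_002V1.1 and Bhs1934_003V1.1, with 0.82 hydrated and 0.30 dehydrated. Bhs1934_003V1.1 is described as homogentisate solanesyltransferase, an enzyme of plastoquinone synthesis. The body of Bhs603_020V1.1 had 0.70 and 0.22, upstream of Bhs603_019V1.1, described as phospholipase C, which cleaves membrane phospholipids. Upstream of Bhs2379_007V1.1 the levels were 0.26 and 0.74, and downstream of Bhs661_029V1.1 0.42 and 0.88, each beside a gene with a GO term for intracellular membrane-bounded organelles. The stretch upstream of Bhs704_043V1.1, a model of 273 bp, and of Bhs704_044V1.1 was in both lists. Bhs704_044V1.1 is described as the chaperonin GroEL, a protein-folding machine. There the hydrated level was 0.08 with 0.50 at 70% RWC, and 0.07 with 0.55 at 10% RWC over an overlapping stretch. Whether any of these neighbours changed in transcription was not tested.

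Unannotated genes were scattered over the assembly. Of 1206 scaffolds with at least 1 of them, 909 held 1 and 180 held 2. The most, 12 genes of 44 listed, were on scaffold18, where 2 were higher and 3 lower at 70% RWC, and 4 higher and 6 lower at 10% RWC. On scaffold51 there were 10 of 38, with 7 higher and 3 lower at 70% RWC and 2 higher at 10% RWC. On scaffold1119, taken by gene ID from 4 scaffolds that tied at 9, there were 9 of 28, with 6 higher and 3 lower, and 3 higher and 1 lower. None of these 3 scaffolds moved in 1 direction at 70% RWC.

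On scaffold18 the region with the largest difference was downstream of Bhs18_011V1.1 and ran into Bhs18_012V1.1, neighbouring models of 387 bp each. It had 1 hydrated and 0.46 at 70% RWC (98359 to 98644), and 0.86 hydrated and 0.43 at 10% RWC (98440 to 98822). Whether these models of equal length are copies of each other, between which reads are hard to place, was not tested. In the opposite direction, the region downstream of Bhs18_082V1.1 had 0.36 hydrated and 0.76 at 70% RWC, and the body of Bhs18_095V1.1 0.35 and 0.71. Bhs18_054V1.1 and Bhs18_033V1.1 were lower in their bodies at 10% RWC, with 0.47 and 0.16, and 0.51 and 0.24.

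On scaffold51, Bhs51_068V1.1, a gene of 615 bp, had a downstream region at 0 hydrated and 0.40 at 70% RWC, and at 0.03 hydrated and 0.51 at 10% RWC. Bhs51_017V1.1 had 0.34 and 0.76 in its body at 70% RWC, and Bhs51_007V1.1 0.56 and 0.24. Body regions of genes on the same scaffold thus differed in opposite directions. On scaffold1119, Bhs1119_063V1.1 had body levels of 0.32 hydrated and 0.65 at 70% RWC, and 0.30 hydrated and 0.63 at 10% RWC. Bhs1119_039V1.1 went the other way in both lists, with 0.29 and 0.09, and 0.49 and 0.22. Bhs1119_069V1.1, the last gene number listed there, had 0.26 and 0.52 upstream at 70% RWC, and 0.19 and 0.40 at 10% RWC.

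Unannotated genes listed at both water contents numbered 335, which was 34.2% (31.2 to 37.2) of the 70% RWC list and 29.3% (26.7 to 32.1) of the 10% RWC list. Annotated genes shared 927, or 42.2% and 36.8%. Regions that overlapped by at least 1 bp were found for 252 unannotated genes (25.7% and 22.1%) and 578 annotated genes (26.3% and 23.0%). The lists share the hydrated library, so a low or high hydrated level alone can place a gene in both with the same direction, and the levels are given side by side only. Of the 252, 159 were higher in both lists, 75 lower in both, 14 higher at 70% RWC and lower at 10% RWC, and 4 the reverse. The 578 annotated genes split into 399, 151, 22 and 6. The direction was thus the same in 92.9% (88.9 to 95.7) of the unannotated and 95.2% (93.1 to 96.8) of the annotated genes, and these intervals overlap. A difference of at least 0.5 in both lists over overlapping stretches was found for 15 of the 252 unannotated genes (5.95%, 3.37 to 9.63). Of the 578 annotated genes it was found for 1 (0.173%, 0.00438 to 0.960). Among the 15, Bhs1835_010V1.1 and Bhs1835_011V1.1 share the same stretch. An extreme hydrated level alone can give a large difference in both lists.

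With identical boundaries the 3 levels can be read on the same bases. There were 36 such genes on 34 regions, and the hydrated level was equal in both lists for 35 of them. For the 27 genes with higher levels the medians were 0.11 hydrated, 0.38 at 70% RWC and 0.39 at 10% RWC. For the 9 with lower levels they were 0.47, 0.19 and 0.22. The 70% and 10% RWC levels differed by a median of 0.02 in each set and by at most 0.12 and 0.06. In these 36 genes the levels at 10% RWC were thus close to those at 70% RWC. They were kept because both lists gave the same boundaries against the hydrated library, and that choice itself favours close levels. They are 36 of the 335 unannotated genes in both lists, so they cannot show whether the levels were close elsewhere.

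The single genes given next are among those with identical boundaries, so they are examples and not further evidence. Upstream of Bhs2524_019V1.1, over 431 bp (scaffold2524, 144310 to 144740), the level was 1 hydrated, 0.32 at 70% RWC and 0.38 at 10% RWC. Upstream of Bhs7522_001V1.1 it was 0.28 hydrated, 0.78 at 70% RWC and 0.79 at 10% RWC. In the body of Bhs574_033V1.1 it was 0.39, 0.78 and 0.80. The exception in the hydrated level was Bhs188977_001V1.1, listed with 0.23 in one table and 0.26 in the other over the same bases, so the hydrated value was not always carried over unchanged between the tables.

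**Figure D5:**
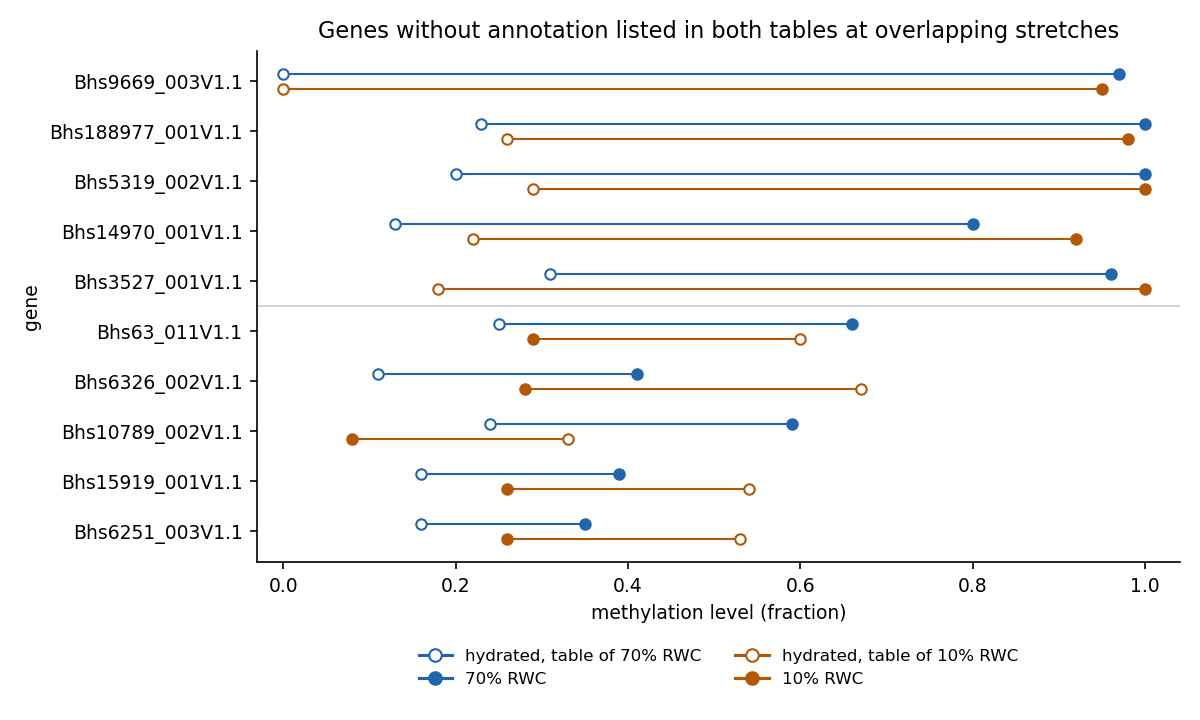
Methylation levels (fraction) of 10 unannotated genes with overlapping regions in both lists, hydrated (open) and dehydrated (filled), for the 70% RWC and 10% RWC tables: the 5 with the largest difference in the same direction and the 5 with the largest in opposite directions. The first 5 are all higher after dehydration in both tables, and in the other 5 the hydrated level itself differs between the tables by 0.09 to 0.56. The stretches share only 1 bp at Bhs63_011V1.1 and 30 bp at Bhs15919_001V1.1, so the gaps there are mostly between different bases.

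Where the boundaries were not identical the hydrated level could differ. Over the 252 genes the median gap between the 2 listed hydrated levels was 0.03, and the widest was 0.56, at Bhs6326_002V1.1. The 5 genes with the largest opposite differences had hydrated gaps of 0.09 to 0.56, and their choice by opposite direction itself favours such gaps. At Bhs63_011V1.1 and Bhs15919_001V1.1 the stretches shared only 1 and 30 bp, so the gaps there are mostly between different bases. Upstream of Bhs6326_002V1.1 the regions (39856 to 40211 and 39857 to 40218) shared 355 bp. The levels there were 0.11 hydrated and 0.41 dehydrated in the 70% RWC table, and 0.67 and 0.28 in the 10% RWC table. A hydrated level that moves by 0.56 over nearly the same bases, in what the labels give as 1 hydrated library, is larger than either listed difference of that gene, and its source was not tested.

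A further 83 unannotated genes were in both lists with regions that did not overlap: 37 were higher in both, 7 lower in both, 27 higher at 70% RWC only and 12 higher at 10% RWC only. They were 8.47% of the unannotated genes of the 70% RWC list and 7.27% of those of the 10% RWC list. The 349 annotated genes with different stretches were 15.9% and 13.9%, and split into 156, 52, 88 and 53. The direction was the same in both lists for 53.0% (41.7 to 64.1) of these unannotated and 59.6% (54.2 to 64.8) of these annotated genes. The widest contrast was inside Bhs963_016V1.1, a gene of 8374 bp. Its body held a region at scaffold963, 552221 to 552474, with 0 hydrated and 0.70 at 70% RWC. Another region lay close to it, at 552577 to 552862, with 1 hydrated and 0.36 at 10% RWC. The hydrated levels of these adjacent stretches, 0 and 1, come from different lists. Whether they differ between the stretches or between the lists was not tested. Bhs807_003V1.1 had 0.21 and 0.57 upstream at 70% RWC (74081 to 74282), and 0.78 and 0.20 at 10% RWC nearer the gene (75198 to 75775).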

How the data were processed

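Whole-genome bisulfite data came from 3 leaf libraries of Boea hygrometrica, 1 each for hydrated leaves, 70% RWC and 10% RWC. Levels were deposited as a fraction per region, averaged within each library per the file headers. The sources used here do not give the aligner, region caller, genome build or sequence context. Coverage was not analysed. Lines that named no gene (57411 and 54694) were left out. Gene ends had been rounded in 108 and 255 rows (34 and 70 unannotated genes), so ends were taken as start plus length minus 1. Region direction, place and gene length are the authors' values, and each direction matched the sign of the difference.

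Shares carry exact (Clopper-Pearson) and medians order-statistic 95% intervals. With 1 library per condition no test was made. Annotated shares were weighted to the unannotated genes' classes of length, place, scaffold extent, region length or level. On simulated data only the weighting on gene length was checked, and only for shares of direction. Unannotated genes were selected by empty KEGG and GO cells. Named genes are the 10 largest differences per list and direction, the 5 largest shared ones, opposite-direction genes, genes on the 3 scaffolds with most members (ties by gene ID), the shortest and longest genes, and the 5 largest regions shared with annotated genes. Some of the named genes with the largest differences are left out for brevity. Bhs7522_001V1.1 and Bhs574_033V1.1 were chosen after their values were seen. Members and rules were chosen with earlier results of these data known. Alternatives were other minimum differences and levels, regions listed for 1 gene, 1 region per scaffold, no KEGG or no GO entry alone, and other overlaps. No genome was used, so no sequence is shown. Software was matplotlib 3.10.9, scipy 1.17.1, numpy 2.4.6 and pandas 2.3.3 under Python 3.11.15.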

Additional observations from a re-analysis of the deposited data

Results flagged for a closer look

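Among the unannotated genes whose overlapping stretches were listed with opposite directions at the 2 water contents (14 higher at 70% RWC only and 4 higher at 10% RWC only), the 5 with the largest differences are given here, and whether the differences themselves differ was not tested. Upstream of Bhs63_011V1.1 the difference was 0.41 at 70% RWC and -0.31 at 10% RWC, over stretches that share 1 bp. Upstream of Bhs6326_002V1.1 it was 0.30 and -0.39. Downstream of Bhs10789_002V1.1 it was 0.35 and -0.25, with hydrated levels of 0.24 and 0.33. At Bhs15919_001V1.1 it was 0.23 downstream at 70% RWC and -0.28 in the body at 10% RWC, over stretches that share 30 bp. Downstream of Bhs6251_003V1.1 it was 0.19 and -0.27. The hydrated level was higher in the 10% RWC table in all 5 of these genes.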

How the results depend on the processing

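No paired analysis was possible because each condition is 1 library. Of the alternative values computed, 34 kept their direction and stayed within their interval or, for a count, within 1.5 times, 20 moved further and 2 reversed. The reversals were in the share of unannotated genes with a higher level at 10% RWC, 45.8% where regions had to differ by at least 0.2 and 42.6% at 0.3. At 70% RWC that share was 63.3% at 0.3. At 70% RWC the body share was 41.2% with regions listed for 1 gene and 37.97% without a KEGG entry. At 10% RWC it was 32.2% at a difference of 0.2, 31.1% at 0.3 and 42.8% with 1 gene. Annotated genes with 1 gene per region had 57.4% at 70% RWC and 57.0% at 10% RWC. At 0.3 they had 35.7% at 70% RWC, beside 34.3% of unannotated genes, and 29.6% at 10% RWC. The lower body share of unannotated genes was thus kept with 1 gene and was not clear at 0.3. Median absolute differences were 0.28 and 0.29 with a higher level of at least 0.3, against 0.26 in each list for annotated genes. With 1 region per scaffold the medians were 0.24 against 0.24 at 70% RWC and 0.24 against 0.23 at 10% RWC. The gap between the classes was thus absent or smaller with 1 region per scaffold. Median gene lengths at 70% RWC were 1413 bp at a difference of 0.3, 1812 bp with 1 gene, 1881 bp without KEGG and 1797 bp without GO, and at 10% RWC 1424.5, 1845.5, 1923 and 1831 bp. Genes shared by both lists were 252 by overlap, 197 by reciprocal overlap of 50% and 36 by identical boundaries. On scaffolds with both kinds of gene, a setting chosen after seeing the data, 4.55% and 2.72% differed by at least 0.5. The annotated genes there had 1.97% and 1.31%. The cause of these shifts was not tested. Without coverage, levels from few reads cannot be told apart from well-covered ones.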
